A study of Mus musculus with 2 samples.

Results

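The proteasome genes of the embryonic sinoatrial node were compared between an Isl1 mutant and a control library. The members were all entries of the deposited gene table whose symbol starts with Psm, one of the letters a to g and a digit. The rule found 46 of the 12557 entries, or 45 of the 12446 symbols, since Psmd14 has 2 entries. Sorting the symbols by role gave 14 constitutive subunits of the 20S core, 17 subunits of the 19S regulatory particle, 2 subunits that replace a core subunit (Psmb10 and Psma8), 5 activator and inhibitor genes and 6 assembly chaperones. The remaining symbol, Psmc3ip, encodes a cofactor of meiotic recombination and no proteasome subunit. Psmb8, Psmb9, Psmb11, Psme2b and Psmg4 were not analysed here.

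RNA sequencing had been carried out on cells of the sinoatrial node, the pacemaker tissue of the heart, from embryos of the ICR strain. Both libraries carried Hcn4-CreERT2, a tamoxifen-inducible recombinase driven from the pacemaker channel gene Hcn4, and a Rosa-tdTomato reporter. The mutant embryos were Isl1f/f, with a floxed gene for the transcription factor Isl1, and the control embryos Isl1+/+. Tamoxifen was given to both genotypes at E10.5 (embryonic day), and nodes were dissected after 36 hours, a stage labelled E12.5. Nodes of 1 genotype were pooled, endothelial cells were depleted with CD31 beads and tdTomato-positive cells were sorted, so that recombination was limited to cells with Hcn4 activity. With 1 library per genotype no spread between replicates could be had, and differences are described by their size without a test.

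The proteasome is the protease complex that degrades ubiquitin-tagged proteins in the cytosol and nucleus. Its 20S core is a barrel of alpha rings, which gate the entry, around beta rings, of which the subunits encoded by Psmb5, Psmb6 and Psmb7 cut proteins. The 19S regulatory particle binds ubiquitin chains, removes them and feeds the unfolded substrate into the core with a ring of ATPases. In immune cells and under interferon, Psmb8, Psmb9 and Psmb10 replace the cutting subunits and form the immunoproteasome. In heart muscle the complex turns over sarcomere proteins that muscle-specific ubiquitin ligases have tagged.

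Levels are RPKM, reads scaled by exon length and library total, and the totals were 110117186 reads (control) and 119018888 reads (mutant). Isl1, the check of the genotypes, had 7.65 RPKM in control and 1.52 RPKM in mutant cells, 5.02-fold lower. All 9 pacemaker marker genes, Isl1 and Hcn4 among them, were in the table and lower in the mutant library (Hcn4 was listed only through its control value), with a summed level of 126 against 57.3 RPKM, while 9 of 10 heart muscle markers were higher (13648 against 19888 RPKM summed). In bulk RNA, fewer cells of a type and less RNA per cell cannot be told apart. Across all genes the ratio moved with level, from a median log2 ratio of -1.17 in the lowest decile of expression to 0.02 in the highest, which holds 31 of the 45 proteasome genes. Intervals beside a fold are exact 95% intervals (Clopper-Pearson) on recovered reads. They hold counting error alone, as PCR copies are not independent molecules. A near-identical stretch in another gene makes the reads of 14 members less certain (Psma3, Psma4, Psma5, Psmb3, Psmb5, Psmb7, Psmc1, Psmc3ip, Psmd1, Psmd2, Psmd11, Psmd13, Psme2 and Psmg3), and 14 overlap another entry of the table.

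Proteasome genes stood at nearly the same levels in both libraries. Of the 45 genes, 21 were higher and 24 lower in the mutant library, with a median log2 ratio of -0.02, beside -0.22 over all genes, of which 32.9% were higher. With the values centred on genes at 5 RPKM or more, the same genes split into 30 higher and 15 lower. Larger differences were counted among genes that reached 5 RPKM in either library, as 41 members did. A gene is called within the band where its mutant level was less than 25% above and less than 20% below its control level, the same fold in both directions. Of the 41 members, 38 (92.7%) lay within the band, beside 57.8% of the 6343 genes at that level. Psme3 alone lay above it (12.6% of those genes did), and Psmd8 and Psme4 lay below it (29.6%). At 1.5-fold, no member was higher (4.64% of those genes) and Psme4 was lower (14.6%), and no member reached 2-fold (1.32% higher and 4.43% lower). Psme4 reached 5 RPKM only in the control library, so its place in these counts is bound to the minimum, and with a mean of 5 RPKM over both libraries Psmd8 alone was below the band. The counting interval held 1 for 16 of the 45 members, beside 18.8% of all genes with recovered reads.

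Since most subunits are well expressed, the members were also set beside genes in a shared range of level. Among genes between 20 and 150 RPKM in the control library, 32 of 34 members (94.1%) lay within the band, beside 70.7% of 1764 genes. Levels were not matched within this range, with median control levels of 59.4 RPKM for the 34 members and 34.3 RPKM for the 1764 genes. Among these 34, 17 were higher (42.1% of the 1764), 1 lay above the band (9.92%) and 1 below it (19.4%), and all 34 differed by less than 1.5-fold (89.5%). The interval held 1 for 11 of the 34, beside 13% of such genes. The standard deviation of their log2 ratios was 0.14, against 0.41 over those 1764 genes. Some other large complexes were of similar width. The 8 genes of the CCT chaperonin, the folding chamber for actin and tubulin, had a standard deviation of 0.12 and a median of 0.05, with 8 of 8 within the band. The 9 genes of the COP9 signalosome, which is built like the 19S lid, gave 0.17 and 0.02, also with 9 of 9 within the band. Within these, Cct2 was 1.10-fold higher and Cct4 1.12-fold lower, and Cops2 1.07-fold higher and Gps1 1.23-fold lower, at the ends of each list. The 13 genes of eIF3, a translation initiation factor with subunits related to those of the lid, gave a standard deviation of 0.22 and a median of -0.11, from Eif3b at 1.48-fold lower to Eif3j at 1.19-fold higher. The list of 73 cytosolic ribosomal protein genes gave 0.26 and a median of 0.16. Of its 65 genes that reached 5 RPKM, 12 lay above the band (12.6% of all genes at that level). The list was matched by symbol and holds Rps19bp1, which is no ribosomal protein. None of these lists was limited by level, unlike the 34 members. Without that limit, the standard deviation was 0.33 over all 45 members and 0.17 without Psma8 and Psmc3ip. No difference between these groups was tested.

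**Figure D1:**
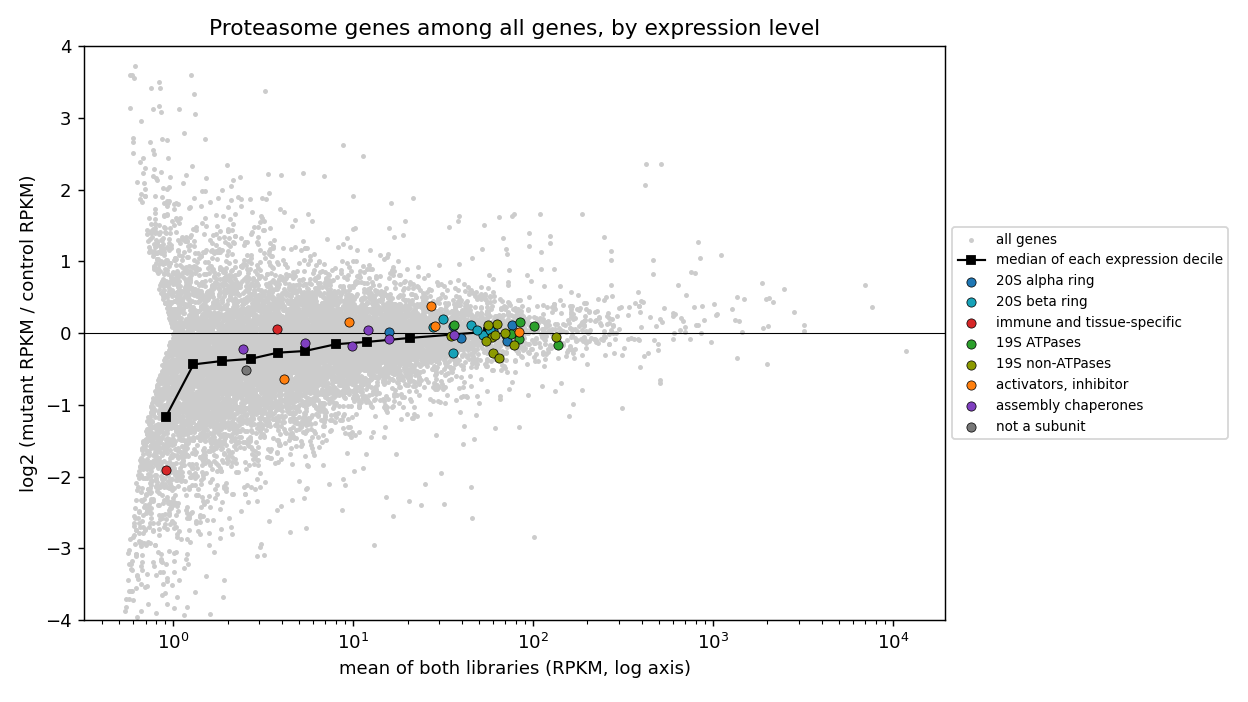
Log2 ratio of mutant to control RPKM (vertical axis) against the mean RPKM of both libraries (horizontal log axis) for all genes in grey, with proteasome genes coloured by role and black squares for the median of each expression decile. Most proteasome genes lie at high levels near a ratio of 0, while Psma8 and Psme4 lie below it and Psme3 above; 48 genes lie beyond the vertical limits of 4.

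The alpha ring was the narrowest class, with a standard deviation of 0.08 on the log2 scale. Its 7 genes had log2 ratios from -0.11 to 0.11 with a median of 0.02, 4 higher and 3 lower, beside 32.9% higher over all genes. Psma1 went from 73.3 RPKM in the control library to 78.9 RPKM in the mutant library, 1.08-fold higher (interval 1.05 to 1.11), the highest ratio of the ring. Psma5 had 74.5 RPKM in control and 69.0 RPKM in mutant cells, 1.08-fold lower (interval 1.05 to 1.11), the lowest. Among the others, Psma7 was at 34.7 and 37.1 RPKM (1.07-fold higher) and Psma3 at 40.5 and 38.6 RPKM (1.05-fold lower). Psma4 (71.7 and 70.2 RPKM) and Psma6 (59.1 and 60.2 RPKM) were 1.02-fold lower and higher. The ring summed to 369 RPKM in control and 370 RPKM in mutant cells. The alpha subunits form 1 ring with 1 copy of each, yet their RNA levels ranged from 15.6 RPKM for Psma2 to 74.5 RPKM for Psma5 in the control library. Psma2 kept this low level in the mutant library, at 15.8 RPKM, and shares its stretch of chromosome 13 (14705521 to 14766503, mm9) with AW209491 on the same strand, so the division of reads between them is uncertain.

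The constitutive beta ring had 5 genes higher and 2 lower, with a median log2 ratio of 0.05. Among all genes at 20 to 150 RPKM in control cells, 42.1% were higher. Among the cutting subunits, Psmb5, which carries the chymotrypsin-like activity, went from 43.0 to 46.7 RPKM, 1.09-fold higher (interval 1.04 to 1.13). Psmb6, the caspase-like subunit, went from 47.7 to 49.4 RPKM, 1.03-fold higher (interval 1.01 to 1.06). Its reads were fitted at 2598 exon bases, beside 1872 in GENCODE, so this interval may be too narrow. Psmb7, the trypsin-like subunit, had 39.0 RPKM in control and 32.1 RPKM in mutant cells, 1.22-fold lower (interval 1.14 to 1.29). It had the lowest ratio of the 14 constitutive core genes, so that the cutting subunits did not go one way. Psmb4, a structural beta subunit, had the highest, at 29.5 and 33.7 RPKM (1.14-fold higher, interval 1.10 to 1.19). The other structural subunits differed less, with Psmb1 at 53.2 and 52.2 RPKM, Psmb2 at 56.9 and 58.7 RPKM and Psmb3 at 26.9 and 28.7 RPKM. Psmb7 overlaps Nek6 on the opposite strand, and the library kit does not mark strand.

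**Figure D2:**
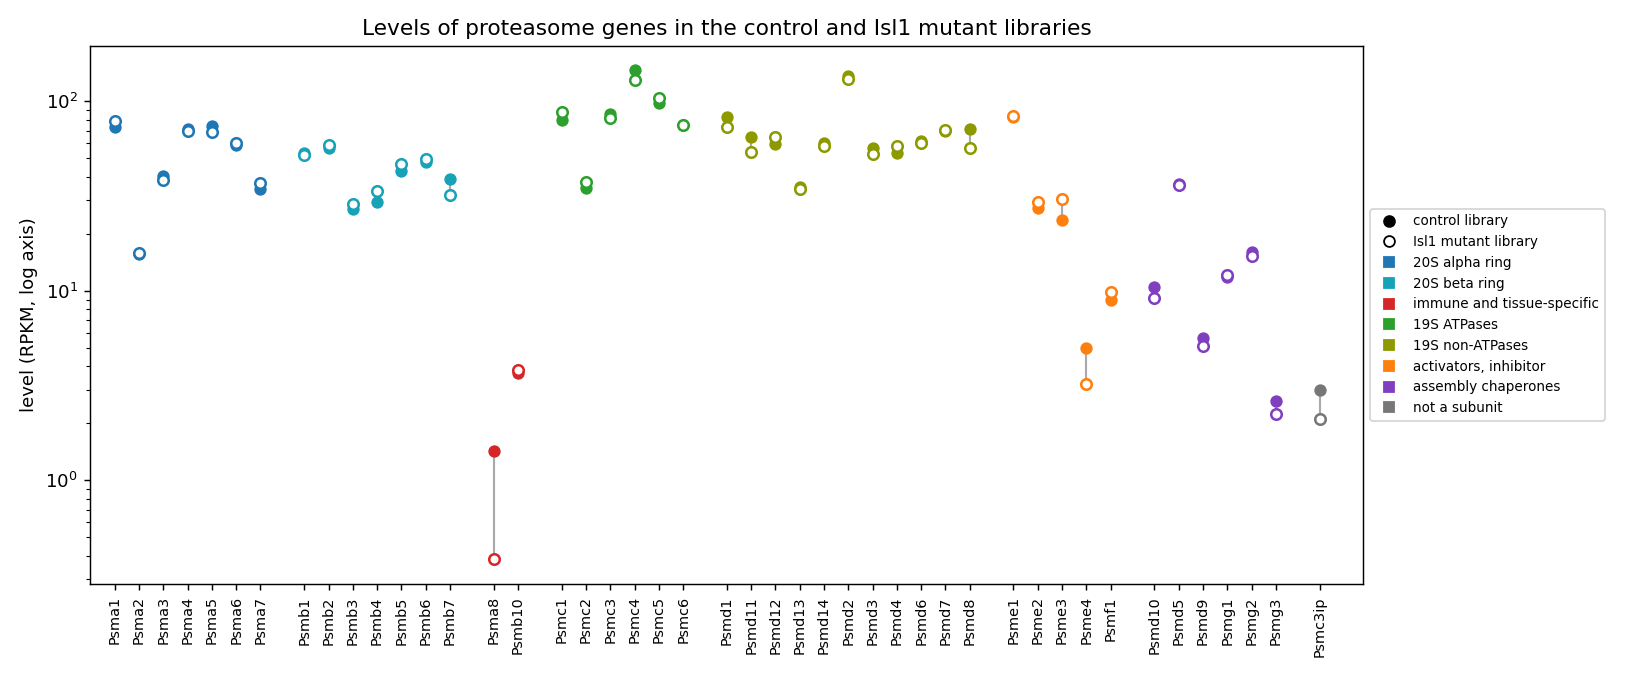
RPKM (vertical log axis) of the 45 proteasome genes in the control library (filled points) and the Isl1 mutant library (open points), grouped by role, with a line joining both values. The points of most genes nearly coincide. Core and regulatory genes lie between 15.6 and 146 RPKM, Psmb10 and Psma8 below 5 RPKM.

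Immune and tissue-specific core subunits were measured through 2 genes of very low level. Psmb10, which replaces Psmb7 in the immunoproteasome, was at 3.68 RPKM in control and 3.83 RPKM in mutant cells, 1.04-fold higher (interval 0.877 to 1.24, which holds 1, from at least 256 and 288 reads). Set against Psmb7, this was 9.44% of its level in control cells and 11.9% in mutant cells. Against Psmb5 it was 8.57% and 8.22%, and against Psmb6 7.72% and 7.77%. Psmb10 lies on chromosome 8 (108459628 to 108462292, mm9). Psma8, which replaces Psma7 in the testis, had 1.44 RPKM in control and 0.384 RPKM in mutant cells, 3.74-fold lower (interval 2.81 to 5.03, from 218 and 63 reads). It is in the table only through its control value, since a gene is listed when 1 library reaches 1 RPKM, so a lower mutant value was bound to the listing; the median log2 ratio was -0.54 over genes between 1 and 2 RPKM in control cells and -1.90 for Psma8 itself. The median of both genes, -0.92, therefore describes neither. Psmb10 overlaps Gm16156 on the opposite strand.

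White blood cells carry the immunoproteasome, and reads of their markers were fewer in the mutant library. All 10 listed marker genes of white blood cells that were in the table, of 14, were lower, and summed to 51.4 RPKM in control and 9.68 RPKM in mutant cells. Cd52, Tyrobp, Aif1 and Spi1 of that list were not analysed here, and no measured marker was at 0. Of the 10, 6 were under 1 RPKM in the mutant library and are in the table only through their control values, so that they could only be lower. Markers of red blood cells (414 to 71.6 RPKM summed, 10 of 10 lower), fibroblasts (508 to 222 RPKM, 10 of 10 lower) and endothelium (30.9 to 18.5 RPKM, 7 of 8 lower, 3 of them listed only through the control library) were lower as well. Psmb10 was near its control value while these markers were lower, and their part in its level was not tested. The log2 ratio of Psmb10 was 0.06, beside a median of -0.27 in its expression decile. With that median removed it stood at 0.33, and with the trend of level and length removed at 0.19.

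The regulatory particle showed slightly lower values than the core. Of its 17 genes, 6 were higher and 11 lower, with a median log2 ratio of -0.04, beside 0.04 for the 14 core genes, of which 9 were higher and 5 lower. The medians differ by 0.08, less than the standard deviation of the genes within either group (0.12 for the core and 0.14 for the particle), and the difference was not tested. Both medians were above 0 when values were centred on genes at 5 RPKM or more (0.11 and 0.03) and both were below 0 when the trend of level and exon length was removed (-0.04 and -0.06). The sign of either median thus depends on the scaling. Without such scaling, 42.1% of all genes at 20 to 150 RPKM in control cells were higher, with a median log2 ratio of -0.06.

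The ATPase ring, which unfolds substrates, had 3 genes higher and 3 lower, beside 42.1% higher among all genes at 20 to 150 RPKM in control cells. Psmc1 went from 79.7 to 88.4 RPKM, 1.11-fold higher (interval 1.08 to 1.14). Psmc4 had 146 RPKM in control and 130 RPKM in mutant cells, 1.12-fold lower (interval 1.10 to 1.14), and was the most abundant proteasome gene in the control library. Psmc6, at 75 and 74.7 RPKM, had an interval that holds 1 (0.984 to 1.02 for the fold lower). Psmc2 (34.9 and 37.7 RPKM) and Psmc5 (97.6 and 105 RPKM) were 1.08-fold and 1.07-fold higher, and Psmc3 (85.9 and 81.5 RPKM) was 1.05-fold lower. The ATPase genes summed to 519 RPKM in control and 517 RPKM in mutant cells.

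The 11 non-ATPase subunits were lower in 8 cases and higher in 3, with a median log2 ratio of -0.05. Among all genes at 20 to 150 RPKM in control cells, 42.1% were higher, with a median of -0.06. Psmd8, a lid subunit, had 71.9 RPKM in control and 56.8 RPKM in mutant cells, 1.27-fold lower (interval 1.23 to 1.30), the lowest ratio among the 31 core and regulatory genes. It lies on chromosome 7 (29959207 to 29965692, mm9), and it lay within the band once values were centred on genes at 5 RPKM or more. Psmd11, another lid subunit, followed, at 65.1 and 53.9 RPKM (1.21-fold lower, interval 1.18 to 1.23). Psmd12, also of the lid, had the highest ratio, at 59.7 and 65.3 RPKM (1.09-fold higher, interval 1.07 to 1.12). The ubiquitin receptor gene Psmd4 was 1.08-fold higher, at 53.6 and 58.0 RPKM. Psmd2, the scaffold of the base, was 1.03-fold lower (136 to 132 RPKM). The other large base scaffold, Psmd1, was 1.13-fold lower (82.7 to 73.5 RPKM), and Psmd3 1.08-fold lower (56.5 to 52.5 RPKM). Psmd6 (61.6 and 60.6 RPKM), Psmd7 (69.9 and 70.2 RPKM) and Psmd13 (35.4 and 34.4 RPKM), all of the lid, were close to their control values. Psmd14, the gene of the lid protease that cuts ubiquitin chains off, was 1.04-fold lower in its main entry, at 60.3 and 58.1 RPKM. Its shorter entry covers the same start on chromosome 2 and went the other way, at 16.4 and 17.6 RPKM (interval 0.888 to 1.31, which holds 1).

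**Figure D3:**
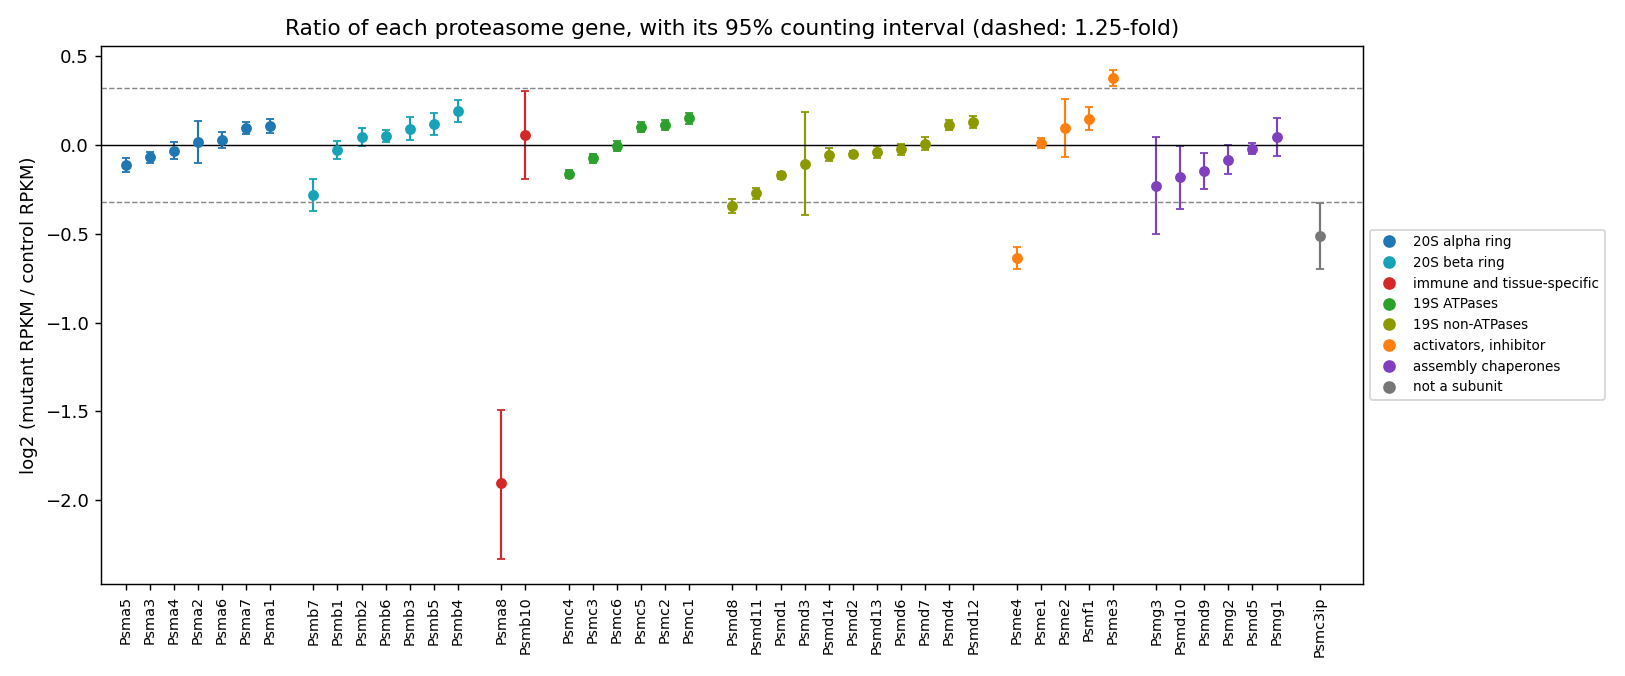
Log2 ratio of mutant to control RPKM (vertical axis) for each of the 45 genes, grouped by role and ordered within a group, with bars for the 95% counting interval and dashed lines at the edges of the band. Psme3 lies above the upper line; Psmd8, Psme4, Psmc3ip and Psma8 lie below the lower one, the last 2 at levels under 5 RPKM. The long bar of Psmd3 comes from the smallest read numbers that its values allow.

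Levels within the complex largely kept their order. Across the 31 core and regulatory genes, log2 levels in both libraries had a Pearson correlation of 0.98 and a Spearman correlation of 0.96, given as a description across genes, which share the libraries and the exon lengths. Core genes averaged 47.5 RPKM in control and 47.9 RPKM in mutant cells, below the 74.8 and 72.5 RPKM of the regulatory particle. The highest level was 9.32 times the lowest among these 31 genes in the control library and 8.32 times in the mutant library. No gene of the 31 differed between the genotypes by more than the 1.27-fold of Psmd8.

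The activators, which open the core without the regulatory particle, spread more than core or regulatory genes, with a standard deviation of 0.38 over 5 genes, inhibitor included. Psme3 encodes PA28 gamma, a nuclear activator that works without ubiquitin, and went from 23.5 to 30.6 RPKM, 1.30-fold higher (interval 1.26 to 1.34, from at least 7525 and 10565 reads). Psme4 encodes PA200, another nuclear activator, and had 5.0 RPKM in control and 3.22 RPKM in mutant cells, 1.56-fold lower (interval 1.49 to 1.62). Both lie on chromosome 11 in mm9, Psme3 from 101177527 to 101184851 and Psme4 from 30671726 to 30780361. The Psme3 level was 4.70 times that of Psme4 in the control library and 9.50 times in the mutant library. Low genes were mostly lower. The median log2 ratio was -0.31 between 4 and 6 RPKM in the control library and -0.43 among such genes with exons of 6000 bases or more, beside -0.64 for Psme4, whose exons span 8382 bases in GENCODE. With the trend of level and length removed, Psme4 stood at -0.26 and lay within the band, while Psme3 stood at 0.41.

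Psme1 and Psme2 encode the alpha and beta subunits of PA28, which interferon induces, and lie beside each other on chromosome 14. Psme1 had 83.0 RPKM in control and 83.7 RPKM in mutant cells, 1.01-fold higher (interval 0.988 to 1.03, which holds 1). Psme2 stood at 27.4 and 29.3 RPKM, 1.07-fold higher (interval 0.953 to 1.19, which also holds 1). Its reads cannot be fully separated from those of the near-identical Psme2b. Psmf1, the gene of the inhibitor PI31, went from 8.93 to 9.89 RPKM, 1.11-fold higher (interval 1.06 to 1.16).

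Assembly chaperones ranged from 2.64 RPKM for Psmg3 to 36.6 RPKM for Psmd5 in the control library. Of 6 genes, 5 were lower and 1 higher, beside 32.9% higher over all genes. Their median log2 ratio was -0.11, beside -0.22 over all genes. The medians of their expression deciles ran from -0.36 for Psmg3 to 0.02 for Psmd5. The intervals of 4 genes held 1. Psmg1, which helps to build the alpha ring, was at 11.8 and 12.2 RPKM, and its partner Psmg2 at 16.1 and 15.2 RPKM. Psmg3 had the lowest ratio, at 2.64 and 2.25 RPKM (1.17-fold lower, interval 0.969 to 1.42). The chaperones of the regulatory particle base, Psmd5 (36.6 and 36.1 RPKM), Psmd9 and Psmd10, were 1.02-fold, 1.10-fold and 1.13-fold lower. Psmc3ip, the symbol match that is no subunit, went from 2.99 to 2.10 RPKM, 1.42-fold lower, beside a median log2 ratio of -0.37 for genes between 2 and 5 RPKM.

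Promoters were read for motifs because the subunits are known to be controlled together, through the factor NRF1 at antioxidant response elements and through other shared elements. The RefSeq promoter table (GRCm38.p6), from 250 bases before to 50 after a start, held 37 of the 45 symbols. The antioxidant response core, TGACNNNGC on either strand, was found in 6 of these 37 genes (16.2%), beside 14% of all 27025 genes of that table and 16.8% of 1265 genes at 20 to 150 RPKM. An ETS core, CCGGAAG on either strand, was found in 15 of 37 (40.5%), beside 9.93% and 24.4%. CCAAT was found in 35.1%, beside 41.1% and 46.2%. The interferon response letters, GAAA and GAAA with any 2 bases between, were found in 4 of 37 (10.8%), beside 3.99% and 3.48%, and these 4 were Psmb3, Psmd4, Psme1 and Psmd9. The motifs were chosen with the data known, and a match is a description of letters.

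The following stretches, each written along its gene 5′ to 3′, show these letters in capitals. Psme3, Psme4 and Psmd6 are shown as examples of the 15 genes with the ETS core, at 107, 53 and 45 bases before the start, and were picked for their differing ratios. Psmb5 holds the antioxidant response core at 47 bases, and Psmb3 the interferon response letters at 163 bases, read from the opposite strand.
Psme3, chr11:101316096-101316122, plus strand: ggcacaaggcCCGGAAGctccgacagc
Psme4, chr11:30771712-30771738, plus strand: tggccccgccCCGGAAGtgacttgagg
Psmd6, chr14:14120974-14121000, minus strand: agagacgcgaCCGGAAGtcagactggc
Psmb5, chr14:54618024-54618052, minus strand: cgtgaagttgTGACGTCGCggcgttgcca
Psmb3, chr11:97703261-97703290, plus strand: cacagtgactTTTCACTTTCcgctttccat

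Among genes that regulate or serve the proteasome, some differed more than its core and regulatory subunits did. These lists lie at lower levels, with a median of 7.22 RPKM for regulators and 4.34 RPKM for associated proteins in control cells. The 31 subunits had 59.7 RPKM. Of all genes at 5 RPKM or more, 57.8% lay within the band, beside 70.7% at 20 to 150 RPKM. The part of level was not tested. Nfe2l1, which encodes NRF1, the factor that raises proteasome genes when the complex is short, had 21.4 RPKM in control and 13.9 RPKM in mutant cells, 1.54-fold lower (interval 1.51 to 1.57). Of all genes at 5 RPKM or more in either library, 14.6% were at least 1.5-fold lower. Ngly1, the enzyme gene that NRF1 needs for its activation, was 1.37-fold lower (6.04 to 4.42 RPKM), and was chosen after its values were seen. Of 10 measured genes in that regulatory list, 2 were higher and 8 lower, beside 32.9% higher over all genes. Their median log2 ratio was -0.33, beside -0.22 over all genes. It was -0.25 and -0.15 in the expression deciles around their median control level of 7.22 RPKM. Nfya was listed only through its control value, so it could only be lower. Of the 8 that reached 5 RPKM, 4 lay below the band (29.6% of all genes at that level). Ngly1, below it, reached 5 RPKM only in the control library, and Nfyb, within it, only in the mutant library. Nfyb, a subunit gene of the CCAAT-binding factor, had the highest ratio (4.29 to 5.07 RPKM, 1.18-fold higher).

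Of 18 measured proteasome-associated genes outside the symbol rule, 8 were higher and 10 lower, beside 32.9% higher over all genes. Their median log2 ratio was -0.05, beside -0.22 over all genes. Rad23b was listed only through its control value, so it could only be lower. Pomp, the maturation factor gene of the core, stood at 30.9 and 32.8 RPKM, 1.06-fold higher (interval 1.01 to 1.12). Uchl5, a deubiquitinase of the regulatory particle, had the highest ratio of the list, at 15.8 and 22.0 RPKM (1.4-fold higher, interval 1.29 to 1.51). Usp14, the other deubiquitinase that binds reversibly, was 1.19-fold higher (24.8 to 29.5 RPKM), while the stable lid protease gene Psmd14 was close to its control value. AI314180, the gene of the adaptor ECM29 that holds core and particle together, was 1.5-fold lower (7.53 to 5.02 RPKM). Usp14 overlaps Thoc1 on the opposite strand and was chosen after its values were seen.

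Upstream of the proteasome, ubiquitin genes and p97 factors had a median of -0.02 over 17 genes, beside -0.22 over all genes. Of the 17, 7 were higher and 10 lower, beside 32.9% higher over all genes. Vcp, the gene of the p97 segregase, was 1.06-fold lower (295 to 277 RPKM). Faf2, a p97 cofactor gene, had the lowest ratio at 5 RPKM or more (10.8 to 8.26 RPKM, 1.31-fold lower).

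Ubiquitin ligases of striated muscle were split. Of 8 measured genes, 4 were higher and 4 lower, beside 32.9% higher over all genes. Fbxl22 was listed only through its mutant value, so it could only be higher. Trim54, which encodes the sarcomere-bound ligase MuRF3, had the highest ratio at 5 RPKM or more, at 16.7 and 28.9 RPKM (1.73-fold higher, interval 1.65 to 1.81). Trim63, which encodes the related MuRF1 and was chosen after its values were seen, was 1.66-fold higher (7.77 to 12.9 RPKM). Fbxo32, which encodes the muscle ligase atrogin-1, had the lowest, at 93.4 and 58.1 RPKM (1.61-fold lower, interval 1.57 to 1.65). These 3 ligase genes differed by more than any core or regulatory subunit. Of the 6 ligase genes that reached 5 RPKM, 2 were at least 1.5-fold higher (4.64% of all genes at that level) and 1 was at least 1.5-fold lower (14.6%).

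Antigen processing and interferon genes, which are induced together with the immunoproteasome, were mostly lower, as were most genes. Of 16 measured genes, 4 were higher and 12 lower, beside 32.9% higher over all genes. Of the 16, 2 were listed only through the control library. Their median control level was 6.31 RPKM and their median log2 ratio -0.32. All genes had -0.37 between 2 and 5 RPKM, -0.31 between 4 and 6 RPKM and -0.25 in the expression decile from 4.43 to 8.73 RPKM. Of the 9 list genes that reached 5 RPKM, 5 lay below the band (29.6% of all genes at that level) and 0 above it (12.6%). H2-D1, below it, reached 5 RPKM only in the control library. H2-D1, a class I histocompatibility gene, had 9.26 RPKM in control and 4.02 RPKM in mutant cells, 2.31-fold lower (interval 2.14 to 2.48), and overlaps H2-Q6 on the same strand, so its reads are uncertain. H2-K1, the other class I gene of the list, went the other way, from 2.88 to 4.42 RPKM (1.53-fold higher, interval 1.39 to 1.70). It had the highest ratio of the list, was chosen after its values were seen, and overlaps H2-Eb1 on the opposite strand. Nlrc5 stood at the table's fill value in the control library and was left out, and Tap1, Tap2, Irf7, Isg15, Ifit1, Ifit3, Gbp2 and Bst2 were not analysed here. B2m, the light chain gene of class I molecules, was 1.17-fold lower (3.06 to 2.60 RPKM). Irf1, an interferon-induced transcription factor gene, had the highest ratio at 5 RPKM or more (8.36 to 9.36 RPKM, 1.12-fold higher).

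**Figure D4:**
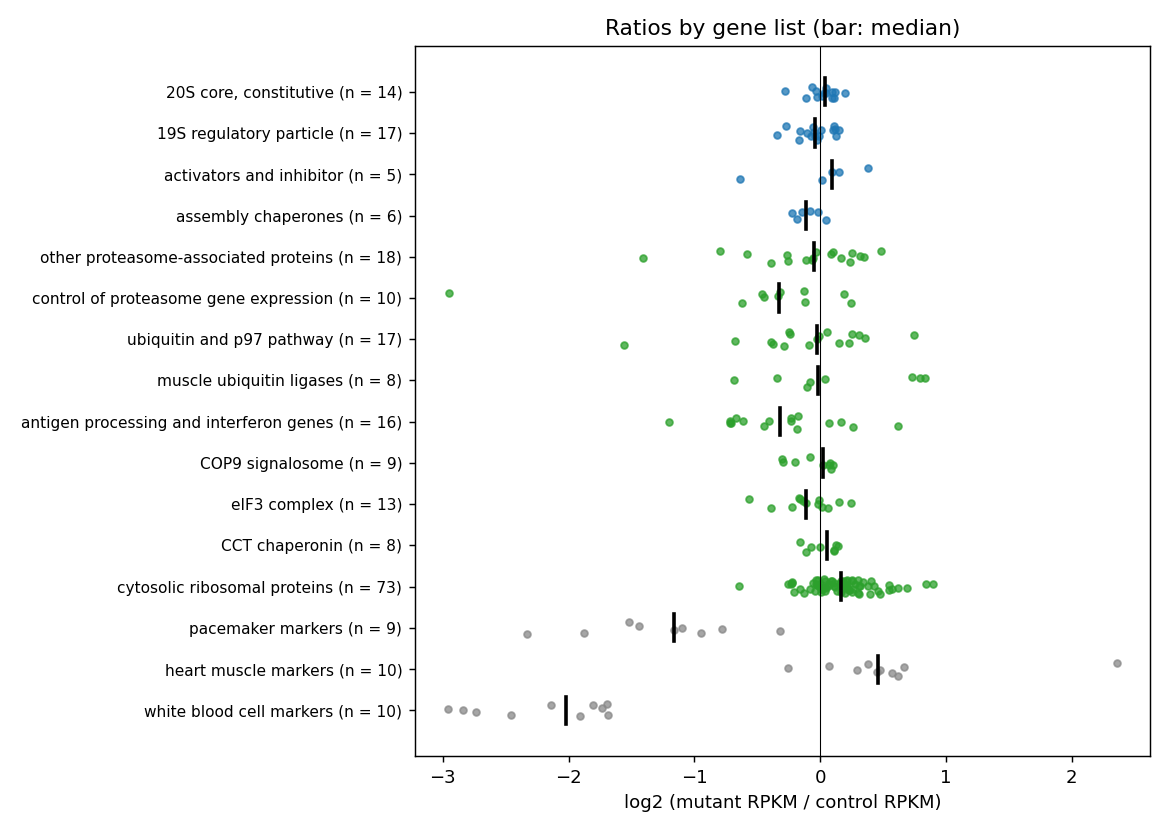
Log2 ratio of mutant to control RPKM (horizontal axis) for each gene, by list, with a black bar at the median; blue points are proteasome classes, green points other lists and grey points cell type markers. Core and regulatory genes, the CCT chaperonin and the COP9 signalosome lie in narrow bands around 0, while lists of associated, regulatory and marker genes spread wider. The associated genes and the regulators of proteasome genes also lie at lower levels (medians of 4.34 and 7.22 RPKM in control).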

How the data were processed

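The labels describe 2 pooled libraries, 1 per genotype, read in pairs of 90 bases. Per the submitters' processing notes, Trim Galore, FastQC, TopHat2 and Bowtie2 were used with build mm9; versions are not stated there. The deposited RPKM values by the authors cover constitutive exons, per the file headers, which name no unit. The unit was inferred: multiplied by gene length, the values of 284 small RNA genes fell on whole reads (tolerance 0.01) in 284 control and 276 mutant cases, the other 8 being at the fill value. The authors' log2 column differs from the log2 ratio of these values by at most 1.89e-07. Reads were recovered for 99.03% of entries as the smallest whole numbers found to fit both values, so intervals can be wider than needed. For some members, Psmb6 and Psme4 among them, the fitted length exceeds the exon length in GENCODE. Intervals can therefore also be too narrow. A fill value stands for 35 control and 71 mutant values, and these genes were left out.

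Ratios are mutant over control RPKM with no pseudocount, and 1 entry was kept per symbol (the highest mean). Folds were counted for genes reaching 5 RPKM in either library. Exon lengths came from GENCODE release M 21 by identifier, matched for 96.1% of entries. Members were searched for near-identical copies with BLAST 2.17.0 (at least 95% identity over 180 bases or more), which 14 of 45 had, overlapping genes included. The scripts were checked on simulated data. Named genes are all members, the highest and lowest member of each other list at 5 RPKM or more and those at least 2-fold different, Pomp, Nfe2l1, Vcp and B2m, and genes said to be chosen later. Some genes under this rule are not reported here. The members and lists were chosen with earlier results of these data known. Python 3.11.15, pandas 2.3.3 and SciPy 1.17.1 were used. Alternatives were other pseudocounts, scalings, level floors and a 1.5-fold threshold, means, and leaving out overlapping genes or copies.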

Additional observations from a re-analysis of the deposited data

How the results depend on the processing

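No paired analysis was possible because each genotype has 1 library, and for the same reason no replicate could be left out. Among alternative values for medians and counts, 40 stayed close to the value reported and 21 moved. For single genes, 11 stayed close and 14 moved, and no called value changed sign. Centring on genes at 5 RPKM or more took the median log2 ratio to 0.0512 for all members, 0.109 for the core and 0.0334 for the regulatory particle, and left 1 gene below the band (Psme4). The mean over all members was -0.0765, and -0.02 without Psma8 and Psmc3ip. Removing the trend of level and length, an alternative chosen after seeing the data like the one without near-identical copies, gave -0.0447 for the core, 2 genes above the band (Psme3 and Psmf1) and 1 below it (Psmd8). The median of Psmb10 and Psma8 was -0.385 with 1 RPKM added, -0.116 with 5 RPKM added, -0.199 with the decile median removed, -0.219 with level and length removed and 0.0346 with Psme1 and Psme2. It was 0.0578 for Psmb10 alone (1 RPKM in both libraries) and -1.90 for Psma8 alone (overlapping genes left out), and at a mean of 5 RPKM no gene was left. With 5 RPKM added, 0 genes lay above and 0 below the band. At 1.5-fold, 0 were above and 1 below. A mean of 5 RPKM left 1 below (Psmd8), and no minimum gave 4 below, Psma8 and Psmc3ip included. Where the construction does not show it, the cause was not tested. Depth limits Psmb10, Psma8 and Psmg3, with 63 to 288 recovered reads per library.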
